A study of Mus musculus with 8 samples.

Results

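The comparison set anti-PD-1 antibody given alone against vehicle in mouse tumors of the CT26 line, a colon carcinoma of BALB/c mice. Its members were chosen by the titles of the samples, and they are 4 of the 8 arrays of the series: 2 of tumors treated with the antibody and 2 of tumors treated with vehicle. The other 4 arrays came from tumors treated with TP-16 (also called BY001), a blocker of the prostaglandin E2 receptor EP4, or with TP-16 and the antibody together. All mice were female BALB/c animals of 6 to 10 weeks with 500000 CT26 cells implanted under the skin of the flank, and were treated for 2 weeks. The antibody, clone RMP1-14, was injected into the peritoneum at 50 µg per mouse, 2 doses a week. The vehicle was carboxymethylcellulose sodium. A rat IgG2a isotype control is named in the methods, but the labels give vehicle alone for the control tumors, so it is not known here whether these mice received an antibody. TP-16 was given by mouth every day at 75 mg/kg. The tumor is a graft of a single cultured line under the skin, and the RNA is that of the whole tumor, with the blood, stroma and immune cells in it. The replicates are described as independent, but it is not stated whether each came from a single tumor or from several, so p-values measure the spread between these samples, which may be technical.

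PD-1 is an inhibitory receptor that T cells display after activation. When it binds its ligands PD-L1 or PD-L2 on tumor or myeloid cells, it dampens signaling from the T-cell receptor, and an antibody that covers PD-1 prevents this. Activated T cells and natural killer cells release interferon gamma, which acts on nearby cells and turns on guanylate-binding proteins, the MHC genes, chemokines that attract more T cells, and PD-L1 itself.

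Total RNA was labelled with the dye Cy3 and hybridised to Agilent mouse arrays, all on 1 slide read in 1 scan. Row 1 of the slide held the vehicle arrays and row 2 those of the antibody, so the treatment and the slide row cannot be told apart. Levels are log2 intensities minus the array's own 75th percentile, and a difference is the anti-PD-1 mean minus the vehicle mean on that scale. The 75th percentile itself was 371.1 and 378.1 intensity units on the vehicle arrays and 398.0 and 414.9 on the anti-PD-1 arrays. Between 51.4% and 59.7% of the probes of each array were well above background, the mark the scanner software gives to a spot clearly brighter than its surroundings. A probe was tested when it had that mark on both arrays of at least 1 of the 4 groups, and a gene is shown by its brightest tested probe, which left 21595 genes. All 8 arrays entered 1 limma fit. The cutoffs of fold and unadjusted p follow the study's methods, but p-values came from limma here and from Student's t-test in the study. A gene was called at a fold of 2 or more and an unadjusted p not above 0.05. It was called separately where the Benjamini-Hochberg adjusted p was also not above 0.05. The number of arrays limits the precision.

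Vehicle replicate 1 stood apart. Subtracting 1 replicate from the other gave values with an SD of 0.68 in the vehicle pair and 0.43 in the anti-PD-1 pair. Many genes of T cells and of the interferon response were lower on vehicle replicate 1 than on vehicle replicate 2. The 19 tested GTPases that interferon gamma induces had a mean level of 0.60 on that array and between 2.72 and 4.43 on the other 7. The array was also low in skeletal muscle genes, with a mean of -0.66 over 18 genes against 0.79 on vehicle replicate 2, 1.23 on anti-PD-1 replicate 1 and 0.19 on anti-PD-1 replicate 2. The brightest of them was Tnnc2, and 17 of the 18 were well above background on all 4 arrays. Over all tested genes 56.1% were lower on vehicle replicate 1 than on vehicle replicate 2, and the share was 86.0% among the genes called higher under anti-PD-1 and 68.6% among those called lower. Lists and most called genes are therefore given with and without this array, and where only 1 array of a group is left, its spread is taken to be that of the other groups. The part of the muscle genes in the results was not tested.

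Under anti-PD-1 alone, all tested GTPases that interferon gamma induces were called higher than under vehicle, as were some genes of MHC class II, lymphocyte-attracting chemokines, mast cells and eosinophils, and all tested red blood cell genes were called lower. The resistin-like gene Retnla, a secreted product of alternatively activated macrophages, had the largest rise of any gene tested, by 5.58 on the log2 scale. It was also 1 of only 2 genes that passed the adjusted threshold with a signal well above background on all 4 arrays. The size of the interferon and T-cell differences depended on vehicle replicate 1, whereas those of Retnla, Nos2, Ear2 and Cpa3 did not.

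At the unadjusted threshold 407 genes were higher under anti-PD-1 (1.88% of those tested) and 484 were lower (2.24%). At the adjusted threshold 6 were higher (0.0278%) and 10 were lower (0.0463%). Both anti-PD-1 arrays lay above both vehicle arrays in 15.6% of the genes and below both in 35.3%, and the median difference of all genes was -0.10. Of the 407 higher genes, 267 were well above background on all 4 arrays, as were 103 of the 484 lower ones. A further 299 of the lower genes were not well above background on either anti-PD-1 array. Of the called genes, 16 higher and 127 lower were well above background on the arrays of the brighter group alone. These were tested only for that reason. Leaving out vehicle replicate 1 kept 168 of the 407 higher genes and 396 of the 484 lower genes, and the background shares became 1.37% higher and 5.51% lower. Without vehicle replicate 2, 366 and 234 were still called, with background shares of 4.26% and 1.58%. Without anti-PD-1 replicate 1 the numbers were 176 and 278 (background 1.29% and 1.86%), and without anti-PD-1 replicate 2 they were 269 and 301 (2.13% and 1.95%). With the methods' t-test the background was 0.384% higher and 0.69% lower. It was 3.45% and 1.22% after quantile normalization, 1% and 0.245% with normexp, and 1.29% and 1.93% in the fit of the 4 compared arrays. Counts of list members below are to be read against the shares of their setting, 1.88% and 2.24% with all arrays. Counted over probes, 43.6% of 1221 calls were in the higher direction, a share that became 74.5% of 1455 after quantile normalization and 79.6% of 329 after normexp background correction. After adjustment 23 probes were called, 35 after quantile normalization, and 0 when any 1 of the 6 treated arrays was left out. Except where stated, the genes below passed the unadjusted threshold and missed the adjusted one.

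**Figure D1:**
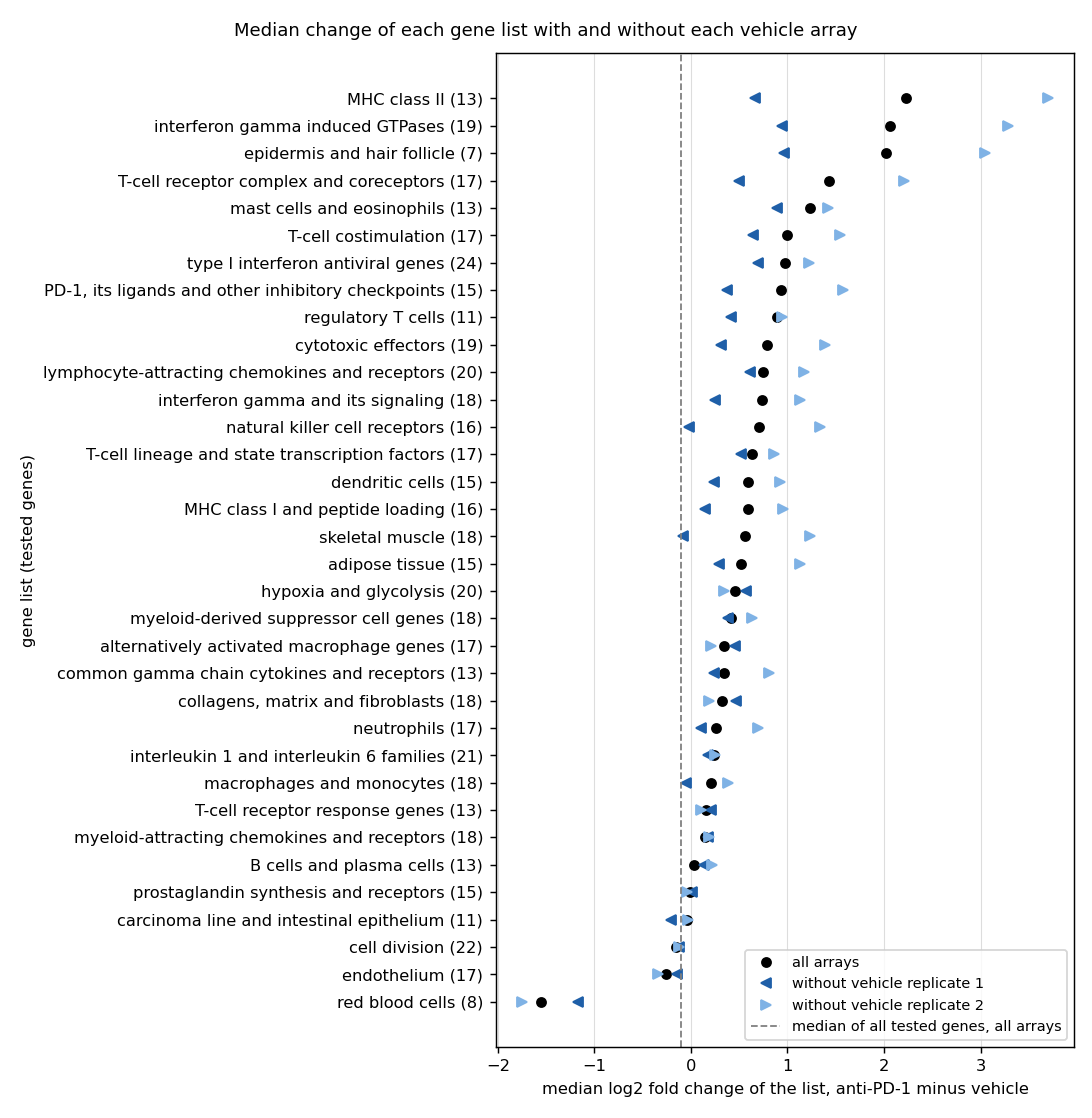
Median log2 fold change (anti-PD-1 minus vehicle) of the tested genes of each of 34 gene lists, with all arrays (circles), without vehicle replicate 1 (left-pointing triangles) and without vehicle replicate 2 (right-pointing triangles); the dashed line is the median of all tested genes. MHC class II moved from 2.23 to 0.66 without vehicle replicate 1 and to 3.70 without vehicle replicate 2, while red blood cell genes lay at -1.55, -1.17 and -1.75.

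Pdcd1, which encodes PD-1, the target of the antibody, had levels of -0.79 and 0.90 on the vehicle arrays and 1.33 and 1.20 on the anti-PD-1 arrays. Both treated arrays were above both vehicle arrays, but the gene was not called (difference 1.21, standard error 0.55, limma adjusted p of 0.379). The difference was 0.37 without vehicle replicate 1 and 2.05, then called, without vehicle replicate 2. Both ligands of the receptor were called higher. Cd274, the gene of PD-L1 (chromosome 19, 29462363 to 29462422 in the mm9 build), measured 0.54 and 1.77 under vehicle and 3.10 and 2.75 under anti-PD-1. The groups did not overlap, and the difference of 1.77 (standard error 0.43, limma adjusted p of 0.247) was 1.16 without vehicle replicate 1. Pdcd1lg2, the gene of PD-L2, measured -1.87 and -1.56 under vehicle and 0.16 and -0.44 under anti-PD-1. Here the vehicle arrays were close together, and the difference of 1.57 (standard error 0.32, limma adjusted p of 0.234) was 1.41 without vehicle replicate 1. Of the 15 tested genes for PD-1, its ligands and other inhibitory receptors, 3 were called higher and 0 lower, with a median of 0.93. The remaining called member was Btla, an inhibitory receptor of B and T cells, at 1.53 on a probe that only 1 vehicle array measured well above background. Its other probe, not well above background on these 4 arrays, gave 0.12. Lag3, another inhibitory receptor of T cells, had a larger difference of 2.02 and was not called, with -4.07 and -1.22 under vehicle and -0.51 and -0.75 under anti-PD-1 (0.59 without vehicle replicate 1). Leaving out vehicle replicate 1 left 2 calls and a median of 0.37, and leaving out vehicle replicate 2 gave 9 and 1.58. Btla was not called without vehicle replicate 1 (0.99) or without anti-PD-1 replicate 1 (1.25).

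Ifng, the gene of interferon gamma (chromosome 10, 117882841 to 117882900), stood at -3.58 and -0.49 under vehicle and at 1.09 and 0.70 under anti-PD-1. Both treated arrays were above vehicle, and the vehicle arrays were farther from each other than vehicle replicate 2 was from the treated arrays. The difference was 2.93 (standard error 0.96, limma adjusted p of 0.302), 1.38 without vehicle replicate 1 and 4.47 without vehicle replicate 2. Of 18 tested genes of interferon gamma and its signaling, 5 were called higher and 0 lower (median 0.74). Among them, besides Ifng, were Il18r1, a chain of the interleukin 18 receptor (1.68), the transcription factor Irf1 (1.29), and Stat4 (1.24), which carries the interleukin 12 signal. The genes of the receptor itself, Ifngr1 and Ifngr2, differed by 0.19 and -0.14 and were not called. There were 2 calls without vehicle replicate 1, Ifng among them, where the median was 0.25, Il18r1 was at 0.81, Irf1 at 0.68 and Stat4 at 0.64. With anti-PD-1 replicate 1 left out, limma called 0 of the 18 (Ifng 2.73, Il18r1 1.55), and with replicate 2 left out 2, with Ifng at 3.12 and Il18r1 at 1.80 not called. The methods' t-test and the fit of the 4 compared arrays each called 0 of the 18, against 5 in the fit of all 8 at the unadjusted threshold.

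The guanylate-binding proteins and the immunity-related GTPases are enzymes that attack the membranes around intracellular microbes, and interferon gamma is their main inducer. All 19 tested members were called higher, against 1.88% of all genes, with a median of 2.06 and a range of 1.21 to 2.49. Gbp4, 1 of the guanylate-binding proteins, measured 0.68 and 3.53 under vehicle and 4.53 and 4.38 under anti-PD-1. Gbp6 measured -1.77 and 1.00 under vehicle and 2.26 and 1.94 under anti-PD-1. In all 19 genes vehicle replicate 1 was lowest, vehicle replicate 2 next, and both anti-PD-1 arrays highest. The differences were 2.35 for Gbp4 (standard error 0.87, limma adjusted p of 0.324) and 2.49 for Gbp6 (standard error 0.84, limma adjusted p of 0.309). Gbp8 followed at 2.46. All 19 differences shrank without vehicle replicate 1, where 6 were called and the median was 0.94. Gbp4 was then at 0.92 and not called, Gbp6 at 1.1 and Gbp8 at 1.21. Without vehicle replicate 2 all 19 were called with a median of 3.28. Leaving out an anti-PD-1 array moved the median little, to 2.03 or 2.14, but left 3 or 4 calls, and Gbp4 (2.28 and 2.43), Gbp6 (2.32 and 2.65) and Gbp8 (2.26 and 2.65) were not among them. Quantile normalization kept 19 calls, normexp 18 and the fit of the 4 compared arrays 4. The methods' t-test on the same values gave 0 calls in the list at its unadjusted threshold, where limma gave 19.

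**Figure D2:**
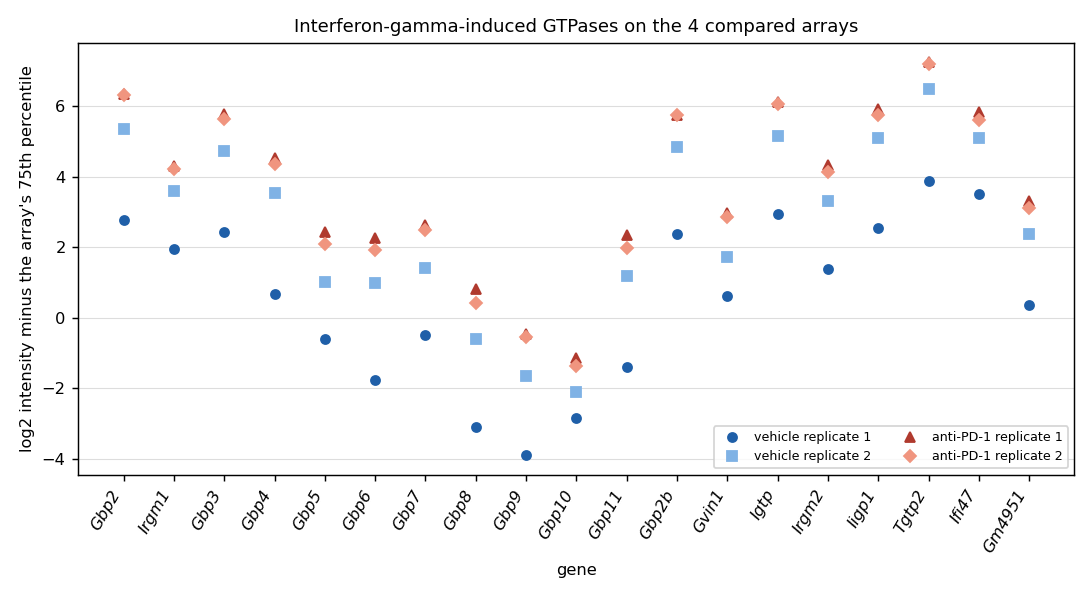
Level of each of the 19 GTPases (log2 intensity minus the array's 75th percentile) on vehicle replicate 1 (circles), vehicle replicate 2 (squares), anti-PD-1 replicate 1 (triangles) and anti-PD-1 replicate 2 (diamonds). Vehicle replicate 1 is lowest for every gene, and the anti-PD-1 arrays lie above vehicle replicate 2.

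Because the whole family was higher together, the DNA before its genes is shown for those that hold both of the letter patterns tied to interferons. The pattern TTCNNNGAA is the core of the gamma-activated site, and its reverse complement has the same letters. The pattern GAAANNGAA is the core of interferon-stimulated response elements and was sought on both strands, after a search for a form with 1 more A at its end. The patterns may overlap, and they were chosen after the values of these genes were seen. In the 250 bases before the start of transcription, TTCNNNGAA occurs in 7.02% and GAAANNGAA in 7.13% of 32851 RefSeq promoters of the GRCm38.p6 build, and 0.752% hold both. Counted by gene, as below, the shares are 8.13%, 8.18% and 1.02%. Of the 19 genes, 10 are in that table. TTCNNNGAA was found before 5 of them and GAAANNGAA before 9, Ifi47 being the exception. The 5 genes with both patterns are Gbp5 at chr3:142496684-142496933 (plus strand), Gbp7 at chr3:142530086-142530335 (plus strand), Igtp at chr11:58199306-58199555 (plus strand), Irgm2 at chr11:58214727-58214976 (plus strand) and Tgtp2 at chr11:49064213-49064462 (minus strand). Capitals mark every match of either pattern, and each sequence runs along the strand of its gene.
Gbp5: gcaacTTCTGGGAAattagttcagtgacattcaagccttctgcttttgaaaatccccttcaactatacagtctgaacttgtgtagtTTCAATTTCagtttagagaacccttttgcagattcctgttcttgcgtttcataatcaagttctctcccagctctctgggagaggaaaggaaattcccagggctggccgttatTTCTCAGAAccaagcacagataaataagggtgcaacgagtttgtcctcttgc
Gbp7: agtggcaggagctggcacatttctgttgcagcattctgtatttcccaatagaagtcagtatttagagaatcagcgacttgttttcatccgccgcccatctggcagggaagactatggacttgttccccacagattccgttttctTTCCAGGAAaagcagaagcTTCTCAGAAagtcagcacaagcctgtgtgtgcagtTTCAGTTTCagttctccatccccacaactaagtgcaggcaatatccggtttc
Igtp: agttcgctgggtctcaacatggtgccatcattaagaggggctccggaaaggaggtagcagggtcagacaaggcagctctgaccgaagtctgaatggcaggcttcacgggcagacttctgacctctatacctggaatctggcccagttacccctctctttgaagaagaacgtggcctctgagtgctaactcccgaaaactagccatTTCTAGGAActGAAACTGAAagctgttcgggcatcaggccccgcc
Irgm2: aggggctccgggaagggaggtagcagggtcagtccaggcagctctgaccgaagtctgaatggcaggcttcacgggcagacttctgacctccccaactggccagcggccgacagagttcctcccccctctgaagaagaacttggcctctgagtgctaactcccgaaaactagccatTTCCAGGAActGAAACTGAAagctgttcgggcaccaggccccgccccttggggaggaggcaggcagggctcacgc
Tgtp2: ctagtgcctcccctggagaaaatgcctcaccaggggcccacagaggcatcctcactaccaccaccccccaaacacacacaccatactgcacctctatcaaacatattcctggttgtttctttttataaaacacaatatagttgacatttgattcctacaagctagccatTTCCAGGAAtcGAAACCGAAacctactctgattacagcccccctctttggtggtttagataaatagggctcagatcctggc
In Igtp, Irgm2 and Tgtp2 the patterns stand side by side. The differences of these genes were 2.06 for Gbp5, 2.11 for Gbp7, 2.04 for Igtp, 1.87 for Irgm2 and 2.05 for Tgtp2. The median of the family, 2.06, lies among them. A match is a description of the letters and says nothing about binding in these tumors.

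Interferons of type I induce genes that act against viruses. Of 24 tested, 11 were called higher and 0 lower (median 0.97), and in all 24 both anti-PD-1 arrays lay above both vehicle arrays, against 15.6% of all genes. Oas3, an enzyme that makes the signal for RNA decay in infected cells, measured -1.65 and -1.18 under vehicle and 0.39 and 0.01 under anti-PD-1. Its vehicle arrays were close together, and the difference was 1.62 (standard error 0.22, limma adjusted p of 0.163), or 1.38 without vehicle replicate 1. Oasl2, a related protein, measured 2.33 and 2.92 under vehicle and 4.48 and 3.93 under anti-PD-1, a difference of 1.58 (1.28 without vehicle replicate 1). Zbp1, a sensor of nucleic acids, had the largest difference of the list, 1.79, but resembled the GTPases in its levels of 2.62 and 4.91 under vehicle and 5.62 and 5.50 under anti-PD-1. It was not called without vehicle replicate 1 (0.65) or without either anti-PD-1 array (1.73 and 1.85). Of the 24, 4 were called without vehicle replicate 1 (median 0.69) and 20 without vehicle replicate 2 (median 1.22). The count was 5 without anti-PD-1 replicate 1 and 17 without anti-PD-1 replicate 2. The methods' t-test called 1 of the 24.

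MHC class II molecules present peptides to helper T cells and are found on dendritic cells, macrophages and B cells. Of 13 tested genes 6 were called higher and 1 lower, against 1.88% and 2.24% of all genes, with a median of 2.23. The methods' t-test and the fit of the 4 compared arrays each called 0 of the 13, where limma on all 8 arrays called 7 at the unadjusted threshold. Ciita, the master activator of these genes (chromosome 16, 10526458 to 10526517), stood at -2.45 and 0.41 under vehicle and at 2.21 and 1.83 under anti-PD-1. The treated arrays were above both vehicle arrays, which were far apart. The difference of 3.04 (standard error 0.91, limma adjusted p of 0.284) was 1.61 without vehicle replicate 1, and the gene was not called without anti-PD-1 replicate 1 (2.85). Its other tested probes gave 2.52 and 0.88, the last on a probe not well above background in either group. The peptide-binding chains followed: H2-Ea-ps at 2.61, H2-Aa at 2.50, H2-Eb1 at 2.44 and H2-Ab1 at 2.31, with the invariant chain Cd74 at 2.40. Without vehicle replicate 1, H2-Ea-ps was at 1.28, H2-Eb1 at 0.99, H2-Ab1 at 0.83 and Cd74 at 1.1. H2-Aa measured -2.76 and -0.02 under vehicle and 1.27 and 0.95 under anti-PD-1, in the same order of arrays as Ciita, and was at 1.13 without vehicle replicate 1. The called lower gene, H2-Ob, was well above background on 1 vehicle array alone, and its bound is under a fold of 1, so no fold is given. It was not called without vehicle replicate 2. The family gave 4 higher calls and a median of 0.66 without vehicle replicate 1, 10 and 3.70 without vehicle replicate 2, and 0 or 1 without anti-PD-1 replicate 1 or 2. H2-Aa and H2-Ea-ps were not called in the last pair of fits, at 2.34 and 2.42 without anti-PD-1 replicate 1 and at 2.66 and 2.80 without replicate 2.

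MHC class I molecules present peptides to killer T cells, and a loading complex fills them. Of 16 tested genes 3 were called higher and 0 lower (median 0.59), against 1.88% and 2.24% of all genes. They were the transporter subunit Tap2 (1.1), the loading chaperone Tapbp (1.09) and Nlrc5 (1.18), the activator of class I genes. Tap2 measured 3.70 and 4.90 under vehicle and 5.48 and 5.32 under anti-PD-1. The invariant light chain B2m differed by 0.07, and Psmb9, an immunoproteasome subunit, by 1.45 without being called (0.46 without vehicle replicate 1). The class I chains H2-K1 and H2-D1 each differed by 0.44. In the fit that left out vehicle replicate 1, limma called 0 of the 16 at the unadjusted threshold, and the median was 0.15, with Tap2 at 0.50, Tapbp at 0.43 and Nlrc5 at 0.46. The count was also 0 without either anti-PD-1 array, where the median was 0.50 or 0.69 (Tap2 1.02 and 1.18, Tapbp 0.99 and 1.19, Nlrc5 1.12 and 1.24), and without vehicle replicate 2 there were 7.

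The T-cell receptor complex and its coreceptors mark T cells as such. A higher level in a whole tumor can come from more cells or from more RNA per cell, which cannot be told apart here, and the same holds for every cell type below. Of 17 tested genes 5 were called higher and 0 lower (median 1.43), against 1.88% and 2.24% of all genes. Among them were the surface receptors Cd6 (2.00), Cd2 (1.92) and Cd5 (1.90) and the receptor subunit Cd3e (1.07). Cd6 measured -1.82 and -0.57 under vehicle and 1.11 and 0.49 under anti-PD-1, without overlap. Cd8a, a chain of the killer T-cell coreceptor, measured -5.02 and -1.43 under vehicle and -0.50 and -0.79 under anti-PD-1. It had the largest difference of the list, 2.59 (limma adjusted p of 0.359), which was 0.79 without vehicle replicate 1, and was not called. Cd8b1, its partner chain, measured -2.01 and 1.25 under vehicle and 1.81 and 1.73 under anti-PD-1. For both chains vehicle replicate 2 lay near the treated arrays and vehicle replicate 1 far below. Cd4, the coreceptor of helper T cells, differed by 0.28. The mean level of the 17 genes was -1.28 and 0.38 under vehicle and 1.09 and 0.78 under anti-PD-1. Thy1 was the brightest, and 15 were well above background on all 4 arrays. Leaving out vehicle replicate 1 left Cd6 (1.37) and Cd5 (1.35) called, with a median of 0.50, but not Cd2 (1.20) or Cd3e (0.47). There were 13 calls and a median of 2.21 without vehicle replicate 2, and 1 or 3 calls without anti-PD-1 replicate 1 or 2, Cd2 (1.73) and Cd5 (1.52) being lost without replicate 1. The methods' t-test called 0 of the 17, where limma called 5 at the same unadjusted threshold.

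Killer lymphocytes act through granzymes, perforin and death ligands. Of 19 tested cytotoxic genes 5 were called higher and 0 lower (median 0.79), against 1.88% and 2.24% of all genes. They were Ifng, Nkg7 (1.90), the death ligands Fasl (1.61) and Tnfsf10 (1.49), and Gzmb. Gzmb, the gene of granzyme B, measured 2.17 and 3.70 under vehicle and 4.21 and 4.07 under anti-PD-1. The treated arrays were above vehicle replicate 2 by less than the vehicle arrays were apart. Its difference of 1.21 (standard error 0.47, limma adjusted p of 0.335) was 0.44 without vehicle replicate 1, and was not called there or without either anti-PD-1 array (1.13 and 1.28). Prf1, the gene of perforin, measured 0.65 and 2.10 under vehicle and 1.97 and 1.94 under anti-PD-1, with vehicle replicate 2 above both treated arrays. Its difference of 0.58 was not called and became -0.14 without vehicle replicate 1. Tnf, at 0.90, and Lamp1, a lysosomal protein exposed when granules are released, at -0.01, were not called. The sign of Lamp1 changed to 0.11 after quantile normalization. In all 19 genes vehicle replicate 1 was below vehicle replicate 2. Only Ifng was still called without vehicle replicate 1 (median 0.31), with Nkg7 at 0.72, Fasl at 0.70 and Tnfsf10 at 0.98, and 15 genes were called without vehicle replicate 2 (median 1.39). Without anti-PD-1 replicate 1 or 2 there were 0 calls or 1, and Nkg7 (1.73 and 2.08) and Fasl (1.41 and 1.81) were lost in both. The methods' t-test called 0 of the 19, against 5 by limma at that unadjusted threshold.

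Costimulatory receptors strengthen the signal of the T-cell receptor. Of 17 tested genes 6 were called higher and 0 lower (median 0.99), against 1.88% and 2.24% of all genes. Icos, an inducible receptor of the CD28 family, measured -2.82 and -0.90 under vehicle and 0.54 and 0.07 under anti-PD-1. Its difference of 2.17 (standard error 0.65, limma adjusted p of 0.286) was 1.21 without vehicle replicate 1. Cd226, a receptor of T cells and natural killer cells, followed at 2.05, and Slamf6, an adhesion receptor of lymphocytes, at 1.5, both measured well above background on only 1 vehicle array. The others were Cd28 (1.33), Tnfrsf18 (1.20) and Slamf1, which was not well above background on any of the 4 arrays. The median was 0.64 without vehicle replicate 1, where Tnfsf4, not called with all arrays, was at 1.22. Leaving out the other vehicle array gave 11 calls and a median of 1.54. There was 1 call without anti-PD-1 replicate 1 and 5 without replicate 2. Slamf6 (0.86), Cd28 (0.67) and Tnfrsf18 (0.50) were not called without vehicle replicate 1. Icos (1.94) and Slamf6 (1.30) were not called without anti-PD-1 replicate 1, nor Tnfrsf18 without either array (1.14 and 1.25). By the methods' t-test 0 of the 17 were called, against 6 by limma at the unadjusted threshold.

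T cells switch on a set of genes within hours of receptor signaling. Of 13 tested, 1 was called higher, Il2ra, and 0 lower, with a median of 0.16. Il2ra, the high-affinity chain of the interleukin 2 receptor, measured -2.86 and -1.55 under vehicle and -1.17 and -1.09 under anti-PD-1, a difference of 1.07 (standard error 0.41, limma adjusted p of 0.329). The remaining probe for it gave -0.64, and the gene was not called without vehicle replicate 1 (0.42) or without anti-PD-1 replicate 1 or 2 (1.11 and 1.04). Cd69, an early activation marker, differed by 0.51, and the early transcription factors Nr4a1, Egr1 and Egr2 by -0.16, 0.19 and 0.16, with 0 calls among these 4. The largest difference of the list was that of the transcription factor Irf4, which was not called and was not well above background on the vehicle arrays. Among 17 transcription factors of T-cell lineages and states 2 were called higher (median 0.63). Tcf7, a factor of memory and stem-like T cells, was not well above background on the vehicle arrays, so its rise is a bound. For such genes the mean of the brighter group was set, array by array, against the higher of the probe's own signal and the dimmest signal well above background in the other group. By this measure Tcf7 was at least 1.38-fold higher, but its other probe gave -0.44. It was not called without vehicle replicate 1. The other call, Bach2, was not well above background on any of the 4 arrays. Tbx21, the factor of type 1 helper cells, differed by 1.73, and Tox by 2.32, uncalled, each at 0.69 without vehicle replicate 1. This list held 1 call without vehicle replicate 1, and 7 without vehicle replicate 2.

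Markers of regulatory T cells, which restrain other T cells, gave 2 higher calls and 0 lower of 11 tested (median 0.89). The calls were Il2ra and Tnfrsf18, which other activated T cells also express. Foxp3, the defining factor, measured -2.40 and -1.85 under vehicle and -2.42 and -2.73 under anti-PD-1, and its difference of -0.46 was not called. As a mean, the list stood at -2.48 and -1.91 under vehicle and -1.21 and -1.69 under anti-PD-1, and Nrp1 was its brightest gene. Of 16 tested receptors of natural killer cells 2 were called higher (median 0.70). Klrc1, a receptor for a nonclassical MHC molecule, was at least 1.04-fold higher, its probe dark on the vehicle arrays. Klrb1c, the marker NK1.1 of several strains, differed by 1.27. Averaged, these receptors stood at -1.52 and -0.27 under vehicle and 0.10 and -0.48 under anti-PD-1. Fcer1g was the brightest gene, and Ncr1, the defining receptor, differed by 0.46. Both lists held 1 call without vehicle replicate 1, with medians of 0.42 and -0.02, and 4 and 10 without vehicle replicate 2, with medians of 0.94 and 1.34. Klrb1c was not called without vehicle replicate 1 (0.70) or anti-PD-1 replicate 1 (0.75), and Klrc1 not without the latter. Their part in the other results was not tested. The common gamma chain cytokines and their receptors, the interleukin 2 family, gave 2 higher calls of 13 (median 0.34), Il2ra and the interleukin 7 receptor Il7r (1.25). Both were lost without vehicle replicate 1, where Il7r was at 0.94.

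Chemokines that draw lymphocytes, and their receptors, gave 8 higher calls and 0 lower among 20 tested genes (median 0.75). Over all genes the shares were 1.88% and 2.24%. Ccl5, a chemokine made by T cells and macrophages, measured 1.78 and 2.50 under vehicle and 4.22 and 4.26 under anti-PD-1. The treated arrays were alike and stood clear of both vehicle arrays. The difference was 2.10 (standard error 0.38, limma adjusted p of 0.215), with 1.74 and 2.46 when vehicle replicate 1 or 2 was left out. Cxcr3, a receptor of activated T cells, measured -2.49 and -2.18 under vehicle and -0.60 and -1.03 under anti-PD-1, a difference of 1.52. Its ligand Cxcl10 was called at 1.43 and its ligand Cxcl9 was not, at 2.21, with 0.89 and 4.11 under vehicle and 4.71 on both treated arrays (0.60 without vehicle replicate 1). Cxcr6, a receptor of tissue T cells, was at 2.30 and Cxcl13, which attracts B cells, at 1.91. Neither was called without vehicle replicate 1 (1.1 and 0.96), Cxcr6 was not called without either anti-PD-1 array (2.08 and 2.52), and Cxcl13 not without anti-PD-1 replicate 2 (1.19). Ccr7, Ccl4 and Xcl1 were the remaining calls. Without vehicle replicate 1 the median was 0.61, and Cxcl10 (0.97) and Xcl1 (0.68) fell below a fold of 2. Ccl3, not called with all arrays, was at 1.14 there. Ccl4 was lost without vehicle replicate 2. Among 18 chemokines and receptors of myeloid cells, 1 was called higher and 2 lower (median 0.15). The median was 0.18 without vehicle replicate 1, and 0.02 and 0.41 without anti-PD-1 replicates 1 and 2. Which direction held more calls depended on the array left out. Ccl8 was higher by 1.14, while Ccl12, a neighbouring monocyte attractant, had a difference of -1.01 and the fractalkine receptor Cx3cr1, of monocytes and macrophages, -1.28. Ccl12 measured 5.67 and 5.16 under vehicle and 4.57 and 4.25 under anti-PD-1. Ccl8 (0.78) and Ccl12 (-0.75) were not called without vehicle replicate 1, Ccl12 not without anti-PD-1 replicate 2 (-0.84), Ccl8 not without anti-PD-1 replicate 1 (0.88), and Cx3cr1 not without vehicle replicate 2 (-1.01) or anti-PD-1 replicate 2 (-0.65).

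Retnla (chromosome 16, 48844447 to 48844506) encodes resistin-like alpha, which macrophages secrete in response to interleukins 4 and 13. Its level was -0.96 and -0.44 under vehicle and 5.11 and 4.64 under anti-PD-1. All 4 arrays were well above background, and the groups were separated by far more than the distance within them. The difference was 5.58 (standard error 0.35, limma adjusted p of 0.018), with 5.32 and 5.83 when vehicle replicate 1 or 2 was left out and 5.34 and 5.81 when anti-PD-1 replicate 1 or 2 was. The adjusted p ranged from 0.013 to 0.4 over the alternatives. Other genes of alternatively activated macrophages did not share this size. Of 17 tested, 4 were called higher and 0 lower, with a median of 0.34. Among them were Retnla, Pdcd1lg2 and the lectin Clec10a (1.13). The median of the list was 0.46 and 0.21 without vehicle replicates 1 and 2, and 0.09 and 0.33 without anti-PD-1 replicates 1 and 2. Mrc1, the mannose receptor, differed by -0.43, the chitinase-like Chil3 by 0.76 and the lectin Mgl2 by -0.33, with 0 calls among them. Another probe of Clec10a gave 0.18, and its call was lost without any 1 of the vehicle arrays or anti-PD-1 replicate 1 (between 0.83 and 1.14).

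Nos2, the inducible nitric oxide synthase of macrophages and myeloid suppressor cells, measured 0.23 and 0.16 under vehicle and 1.93 and 1.65 under anti-PD-1. Ido1, an interferon-induced enzyme that breaks down tryptophan, measured -3.63 and -0.19 under vehicle and 1.65 and 1.67 under anti-PD-1. The groups of both genes were apart, but the vehicle arrays were close together for Nos2 and far apart for Ido1. The difference of Nos2 was 1.60 (standard error 0.21, limma adjusted p of 0.163), and it stayed between 1.46 and 1.73 when any 1 of the 4 arrays was left out. That of Ido1 was 3.57 (standard error 1.03, limma adjusted p of 0.277), which became 1.85 without vehicle replicate 1 and 5.29 without vehicle replicate 2, called in both. Both were among 3 calls in 18 genes of myeloid-derived suppressor cells (median 0.42), immature cells that restrain T cells, and 3 calls were also made without vehicle replicate 1 (median 0.38). The calprotectin genes S100a8 and S100a9 differed by 0.15 and 0.02.

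Pan-macrophage markers were nearly level. Of 18 tested, 1 was called higher and 0 lower, with a median of 0.21, and the mean level was 3.87 and 4.14 under vehicle and 4.42 and 4.18 under anti-PD-1. The median was -0.05 without vehicle replicate 1. Lyz2 was the brightest, and all 18 were well above background on all 4 arrays. The call was Ly6c2, the marker of inflammatory monocytes, at 4.85 and 6.62 under vehicle and 7.68 and 7.60 under anti-PD-1. Its difference of 1.90 (standard error 0.53, limma adjusted p of 0.272) was 1.02 without vehicle replicate 1, and still called. Adgre1, which encodes the marker F4/80, differed by 0.63, Csf1r by 0.10 and the complement genes C1qa, C1qb and C1qc by 0.19 to 0.24, with 0 calls. Of 17 neutrophil markers 0 were called by limma at the unadjusted threshold or by the methods' t-test (median 0.26), and 4 were called higher without vehicle replicate 2. The mean level was -0.69 and 0.00 under vehicle and 0.08 and -0.03 under anti-PD-1, Csf3r was the brightest, and the defining markers Ly6g and Ltf were not well above background on any of the 4 arrays. The part of these cells in the results was not tested.

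Dendritic cells carry antigen to T cells. Of 15 tested markers 5 were called higher and 0 lower (median 0.59), against 1.88% and 2.24% of all genes. Flt3, the receptor on which their precursors depend, measured -3.78 and -3.47 under vehicle and -1.91 and -2.59 under anti-PD-1. Its difference of 1.38 (standard error 0.35, limma adjusted p of 0.259) was 1.22 without vehicle replicate 1. Ccr7, the receptor that leads mature cells to lymph nodes, measured -0.22 and -0.14 under vehicle and 1.16 and 0.86 under anti-PD-1, a difference of 1.19. Cd24a was at 1.41. Clec9a, a receptor for dead cells on the cross-presenting type, was at least 2.00-fold higher and Zbtb46 at least 1.55-fold, both with probes dark under vehicle. Another probe of Clec9a gave 1.53, and the gene was not called without vehicle replicate 1 or anti-PD-1 replicate 1. Xcr1, a defining marker of the same type, was not well above background on any of the 4 arrays, and Batf3, a factor these cells need, differed by 1.02 without a call. The markers averaged -1.16 and -0.57 under vehicle and -0.05 and -0.40 under anti-PD-1, with Siglech brightest. There were 4 higher calls and 1 lower without vehicle replicate 1 (median 0.24) and 6 higher without vehicle replicate 2, where Zbtb46 was lost. Their part in the other results was not tested.

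Mast cells and eosinophils are granulocytes of type 2 responses. Of 13 tested markers 7 were called higher and 0 lower (median 1.23), against 1.88% of all genes. The list held 16 genes, and the eosinophil genes Epx, Prg2 and Ear6 were not among those tested. Ear2 and Siglecf were the only eosinophil genes called. Cpa3, the carboxypeptidase of mast-cell granules (chromosome 3, 20115674 to 20115733), measured 1.44 and 1.70 under vehicle and 2.76 and 2.96 under anti-PD-1. Ear2, a ribonuclease of eosinophils, measured -2.64 and -2.61 under vehicle and -0.53 and -0.73 under anti-PD-1. In both genes the arrays of a group were alike and the groups well apart. The difference of Cpa3 was 1.29 (standard error 0.18, limma adjusted p of 0.168) and that of Ear2 was 1.99 (standard error 0.25, limma adjusted p of 0.15). Without vehicle replicate 1 they were 1.16 and 1.98, and both were called without each of the 4 arrays. The mast-cell proteases Mcpt4 (1.23), Tpsb2 (1.08) and Cma1 (1.26) were higher with them. Siglecf, a surface lectin of eosinophils, was at least 1.78-fold higher, its probe dark on the vehicle arrays. The mast-cell receptor Mrgprb2 was called, but only 1 anti-PD-1 array measured it well above background, its bound is under a fold of 1, and no fold is given. Kit, the receptor on which mast cells depend, differed by 0.24, and the eosinophil receptors Il5ra and Ccr3 by -0.24 and -0.15, with 0 calls. The 13 markers averaged -1.99 and -1.47 under vehicle and -0.71 and -0.87 under anti-PD-1. Mcpt4 was the brightest, 8 genes were well above background on all 4 arrays, and Alox15 was on 0 of them. The calls numbered 5, with a median of 0.89, without vehicle replicate 1, which lost Mcpt4 (0.95) and Cma1 (0.89). There were 8, with a median of 1.42, without vehicle replicate 2, and 7 or 6 without anti-PD-1 replicate 1 or 2. Their part in the other results was not tested.

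**Figure D3:**
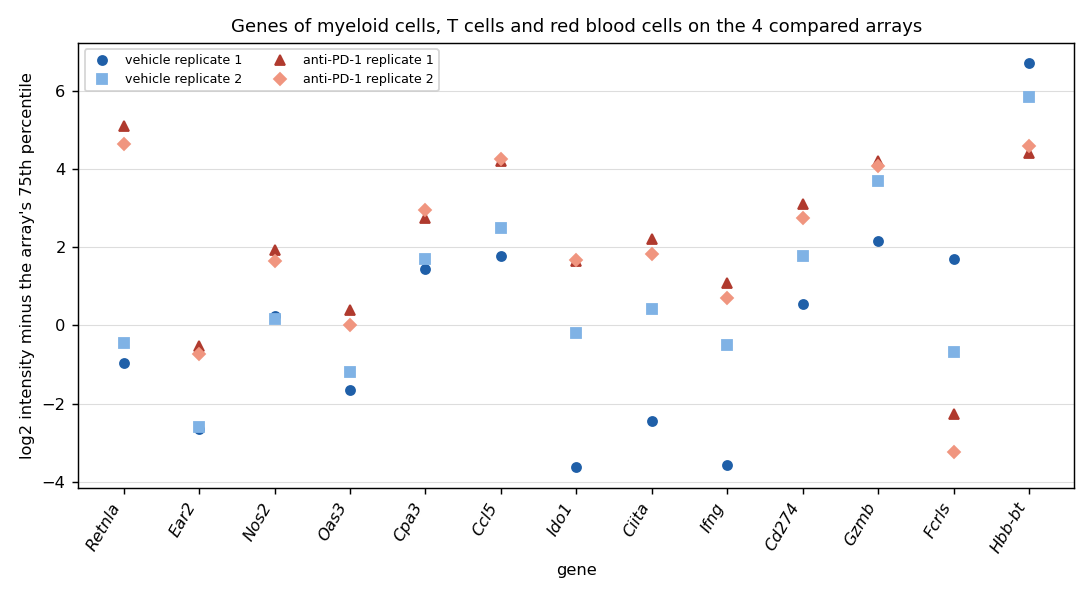
Levels of 13 named genes (log2 intensity minus the array's 75th percentile) on the vehicle arrays (circles and squares) and the anti-PD-1 arrays (triangles and diamonds). Retnla, Ear2, Nos2, Oas3 and Cpa3 have vehicle arrays close together and apart from the treated arrays, whereas for Ido1, Ciita and Ifng vehicle replicate 1 lies far below vehicle replicate 2.

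Markers of B cells and plasma cells did not move together. Of 13 tested, 3 were called higher and 2 lower, against 1.88% and 2.24% of all genes, with a median of 0.03. Jchain, which joins the units of IgA and IgM, measured -3.26 and -1.61 under vehicle and 0.28 and 0.19 under anti-PD-1. The groups did not overlap, and its difference was 2.67 (standard error 0.58, limma adjusted p of 0.241), or 1.85 without vehicle replicate 1. Mzb1, a chaperone of antibody assembly, was at 1.41 and was not called without vehicle replicate 1 (0.66) or without either anti-PD-1 array. Fcrla was at least 2.33-fold higher and was not called without vehicle replicate 1 or anti-PD-1 replicate 1. Antibody gene probes were among the largest rises of all genes: Igh-VJ558 at 2.84 and Iglv1 at 2.76, each well above background on 1 vehicle array only. Iglv1 was at 1.56 without vehicle replicate 1 and at 3.96 without vehicle replicate 2. Igh-VJ558 was not called without vehicle replicate 1 (1.41) or without either anti-PD-1 array (2.67 and 3.02), and Iglv1 not without anti-PD-1 replicate 2 (2.59). The lower genes mark mature B cells. Ms4a1, the gene of CD20, measured -1.18 and -1.22 under vehicle and -2.44 and -2.21 under anti-PD-1, and Cd79a, a subunit of the B-cell receptor, was at least 1.43-fold lower, dark under anti-PD-1. Ms4a1 was not called without either vehicle array, although its difference stayed at -1.11 and -1.14, and Cd79a not without vehicle replicate 2. On average the 13 markers lay at -3.17 and -2.71 under vehicle and -2.67 and -2.65 under anti-PD-1, with Cd22 brightest. The median was -0.01 with normexp, with 1 higher call and 0 lower, and 0.47 after quantile normalization, with 5 and 1. In all, 1 was called higher and 2 lower without vehicle replicate 1, against 4 higher and 0 lower when the other vehicle array was dropped. Their part in the other results was not tested.

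Red blood cell genes had the lowest median of the 34 lists. All 8 tested were called lower, against 2.24% of all genes, with a median of -1.55. Hbb-bt, a beta-globin gene (chromosome 7, 110961105 to 110961164), measured 6.72 and 5.84 under vehicle and 4.41 and 4.59 under anti-PD-1. Hba-a1, an alpha-globin gene and the brightest of the list, measured 8.68 and 8.07 under vehicle and 7.04 and 7.09 under anti-PD-1. Both vehicle arrays were above both treated arrays in all 8 genes, where 35.3% of all genes have this order. The difference was -1.78 for Hbb-bt (standard error 0.30, limma adjusted p of 0.205) and -1.31 for Hba-a1, with Hbb-b2 at -1.64, Hbb-b1 at -1.58 and the heme-synthesis enzyme Alas2 at -1.53. Some globin genes are near-identical copies, so their probes may not be separate measurements. Klf1, the transcription factor of the lineage, was at least 1.48-fold lower, dark on both treated arrays and measured on 1 vehicle array. The mean level of the 8 genes was 3.52 and 3.09 under vehicle and 1.81 and 1.73 under anti-PD-1. It was 1.55 and 1.33 under TP-16 and 1.1 and 1.39 under the combination. The count was 7 with a median of -1.17 without vehicle replicate 1, 8 with -1.75 without vehicle replicate 2, and 8 or 7 without anti-PD-1 replicate 1 or 2. Hbb-bt was at -1.34 without vehicle replicate 1. Klf1 is still counted without vehicle replicate 2, the only 1 of the 4 compared arrays that measured it well above background, and no value is given for it there. The methods' t-test called 1 of the 8. The amount of blood in each sample was not measured, and its part in these values was not tested.

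Lists of the tumor and of its stroma held few calls. The 11 tested genes of the carcinoma line and of intestinal epithelium had a median of -0.04, which was 0.01 after quantile normalization, and 1 call, lower. It was Cdx2, a factor of intestinal identity, at -2.17 and -1.80 under vehicle and -3.48 and -4.41 under anti-PD-1, where only 1 array measured it well above background. Its difference of -1.96 (standard error 0.40, limma adjusted p of 0.234) was -2.14 without vehicle replicate 1. Cdx2 entered the test only through the vehicle arrays, where it was bright, which limits what its p-value and fold can show. Krt20 was the brightest of the list, and 7 of the 11 were well above background on all 4 arrays. The 22 genes of cell division gave 0 calls by limma at the unadjusted threshold or by the methods' t-test, with a median of -0.15. The proliferation marker Mki67 measured 4.30 and 4.31 under vehicle and 4.44 and 4.42 under anti-PD-1. In 16 of the 22 the treated arrays were below vehicle, a share to be read against 35.3% of all genes, and the median was -0.05 after quantile normalization. The 20 genes of hypoxia and glycolysis gave 0 calls by both tests and a median of 0.46, with the treated arrays above vehicle in 15, where 15.6% of all genes have this order. The glucose transporter Slc2a1 measured 5.36 and 5.11 under vehicle and 5.70 and 5.94 under anti-PD-1, and Car9, a carbonic anhydrase of hypoxic cells, differed by 0.97. Collagens and fibroblast genes gave 0 calls of 18 (median 0.32), Col1a1 differing by 0.79, and endothelial genes 0 of 17 (median -0.26), Pecam1 differing by -0.26, in each case by both tests. Without vehicle replicate 1 some members passed a fold of 2. Col1a1 was at 1.1, the matrix gene Postn at 1.27, Car9 at 1.25 and the prostaglandin receptor gene Ptger1 at -1.08. Without vehicle replicate 2 these genes were at 0.48, 0.54, 0.68 and -0.12. Over these lists the mean level was 3.46 and 3.10 under vehicle and 3.73 and 3.48 under anti-PD-1 for fibroblasts, and 0.38 and 0.38 against 0.26 and 0.08 for endothelium, with Sparc and Egfl7 brightest. Prostaglandin synthesis and receptors gave 0 calls of 15 by both tests (median -0.01, or 0.08 after quantile normalization), and Ptger4, the gene of EP4, measured -0.37 and 0.01 under vehicle and 0.71 and 0.28 under anti-PD-1. A dimmer Ptger4 probe, well above background on 1 vehicle array, gave 1.19 and passed the unadjusted threshold. The interleukin 1 and interleukin 6 families gave 0 calls of 21 by both tests (median 0.24), and Il1b differed by 0.15.

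Markers of skin, muscle and fat varied between arrays of the same group. Epidermis and hair follicle genes had a mean level of -2.11 and -0.38 under vehicle and -1.5 and 2.42 under anti-PD-1, so anti-PD-1 replicate 2 stood out. Of the 18 genes 7 were tested, 0 were called by limma at the unadjusted threshold or by the methods' t-test, and the median of 2.02 was -0.34 without that array. Trp63 was the brightest, and 6 of the 7 were well above background on all 4 arrays. Krt14, a keratin of the basal epidermis, measured -4.04 and -0.35 under vehicle and -3.45 and 4.22 under anti-PD-1. Its difference of 2.58 was -1.26 without anti-PD-1 replicate 2. Skeletal muscle genes gave 0 calls of 18 by both tests with a median of 0.56, which was -0.08 without vehicle replicate 1, and 8 higher calls without vehicle replicate 2. Acta1, the muscle actin, differed by 0.49 and by -0.09 without vehicle replicate 1. Of 15 adipose genes 3 were called higher and 0 lower (median 0.52), against 1.88% and 2.24% of all genes. They were the lipase Lpl (1.65), the complement protease Cfd (1.56) and Retn (1.13). Other probes of Lpl gave values from -0.55 to 1.49. Adipose genes averaged -1.0 and -0.35 under vehicle and -0.03 and -0.16 under anti-PD-1, Fabp4 was the brightest, and 14 of the 15 were well above background on all 4 arrays. Adipose calls by limma at the unadjusted threshold fell to 0 without vehicle replicate 1, with Lpl at 1.42, Cfd at 0.77 and Retn at 0.82, and were 8 without vehicle replicate 2. Lpl (1.49) and Cfd (1.21) were also lost without anti-PD-1 replicate 1, and Retn (1.12) without replicate 2. The part of these tissues in the results was not tested.

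Some of the largest single differences lay outside the lists. Inpp5j, Ly6f and Efcab13 were well above background on only 1 vehicle array, so the size of their differences is uncertain. Inpp5j, a phosphatase of inositol lipids, measured -4.81 and -2.40 under vehicle and 0.44 and -0.83 under anti-PD-1, a difference of 3.41 (standard error 0.91, limma adjusted p of 0.264), or 2.21 without vehicle replicate 1. It was not called without anti-PD-1 replicate 1 (2.77). Ly6f, a membrane-anchored protein of the Ly6 family, measured -4.42 and -3.47 under vehicle and -1.30 and -1.53 under anti-PD-1, a difference of 2.53 that was 2.06 without vehicle replicate 1. Efcab13, with anti-PD-1 replicate 1 close to vehicle replicate 2, was at 3.10 and was not called without vehicle replicate 1 (1.28) or anti-PD-1 replicate 2 (2.38). It entered the test only through the anti-PD-1 arrays, where it was bright, so no conclusion is drawn from its call. In the lower direction Fcrls, a scavenger receptor best known from microglia (chromosome 3, 87056422 to 87056481), measured 1.70 and -0.68 under vehicle and -2.26 and -3.25 under anti-PD-1. All 4 arrays were well above background, and the vehicle arrays differed by more than vehicle replicate 2 did from anti-PD-1 replicate 1. The difference was -3.27 (standard error 0.79, limma adjusted p of 0.248), or -2.08 without vehicle replicate 1. Flywch2, whose groups were tight, measured -1.82 and -1.37 under vehicle and -3.30 and -3.50 under anti-PD-1, a difference of -1.81 (standard error 0.18, limma adjusted p of 0.0725). Csn3, a casein of milk, was at -1.88, with other probes at -0.19 and -2.17, and the pituitary hormone gene Prl at -1.75, which was -1.05 without vehicle replicate 1 and not called without anti-PD-1 replicate 2 (-1.60). Far2os2 (-2.89), Ostn (-2.47), Lyzl4 (-2.40), Cyp3a41a (-1.87) and Elfn1 (-1.77) were well above background on 1 anti-PD-1 array only. Far2os2, Ostn and Elfn1 entered the test only through the vehicle arrays, where they were bright, so no conclusion is drawn from their calls. Isl2, a homeodomain factor of neurons, was at -1.95 and was not called without vehicle replicate 1 (-0.83) or without either anti-PD-1 array (-1.93 and -1.96).

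The probes past the adjusted threshold were mostly dim. Of the 23, 14 were lower, and 13 of these were well above background on both vehicle arrays and on 0 of the other 6. They entered the test only through the group in which they were bright, which limits what their p-values and folds can show. The largest belonged to the clone 4930522H14Rik, with -0.72 and -1.37 under vehicle and -6.24 and -6.57 under anti-PD-1, at least 8.36-fold lower. AK047151 was at least 5.84-fold lower, Gm5 5.79-fold and Cdrt4os1 4.18-fold. For 4 of the 14, the probes of Ly6g6e, Mrps18b, Gas7 and Plb1, a brighter probe of the same gene was tested. It gave -0.34 for Ly6g6e, -0.19 for Mrps18b and 0.32 for Gas7, without a call, and for Plb1 -2.79, called at the unadjusted threshold alone. Of the 9 higher probes, 7 were dark under vehicle and 2 were measured well above background on all 4 arrays, those of Retnla and Spats2l. Spats2l (chromosome 1, 58003683 to 58003742) measured -1.04 and -0.75 under vehicle and 0.88 and 0.72 under anti-PD-1. The arrays of each group were close, and the difference was 1.69 (standard error 0.14, limma adjusted p of 0.0378, between 0.0185 and 0.415 over the alternatives). A further tested probe of this gene gave -0.16. The probes of Smyd4, a methyltransferase-like gene, and of Fkbp15 and A830008E24Rik were not the brightest of their genes, whose other probes gave -0.29, 0.18 and -0.43. Dgki, a diacylglycerol kinase, was at least 2.63-fold higher, and the serotonin receptor gene Htr5a at least 1.40-fold. The probes of Dgki, Htr5a, Smyd4, A230055C15 and A830008E24Rik were well above background on the anti-PD-1 arrays alone and were tested only for that reason. The adjusted calls without vehicle replicate 1 were 165 probes and without vehicle replicate 2 they were 293.

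Mean list levels under TP-16, against anti-PD-1, were 3.59 and 3.12 against 3.76 and 3.59 for the GTPases. For MHC class II they were 2.89 and 2.6 against 2.57 and 2.2. For the T-cell receptor complex they were 1.11 and 0.75 against 1.09 and 0.78. In these lists TP-16 too was above both vehicle arrays. Cytotoxic genes were lower under TP-16 (1.1 and 0.81 against 2.22 and 2.08). So were mast cells and eosinophils (-1.55 and -1.63 against -0.71 and -0.87). For single genes, the test of the difference between anti-PD-1 and the other treated groups was taken from the same fit. Retnla was at 2.53 and 3.38 under TP-16 and at 5.30 and 5.69 under the combination. Anti-PD-1 minus TP-16 was 1.92 (limma adjusted p of 0.333), and the combination minus anti-PD-1 was 0.61 (limma adjusted p of 0.318). Cpa3 was at 1.87 and 2.08 under TP-16 and at 3.31 and 3.64 under the combination, and anti-PD-1 minus TP-16 was 0.88 (limma adjusted p of 0.374). Nos2 was at 2.80 and 3.28 and Ccl5 at 5.83 and 6.55 under the combination. The combination minus anti-PD-1 was 1.25 for Nos2 and 1.95 for Ccl5, each with a limma adjusted p of 0.0722. These 4 genes did not differ from the other treated groups past the adjusted threshold, which does not show that their levels were alike. Past it were 6 probes against TP-16 and 5 against the combination. They include those of Dgki, Smyd4, Htr5a, A230055C15 and A830008E24Rik in both tests, which make up all 5 against the combination. These probes were dark under the combination, although it too contained the antibody. They entered the tests only through the anti-PD-1 arrays, so no conclusion is drawn from their p-values.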

How the data were processed

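RNA of whole CT26 tumors was measured on 8 one-colour arrays, grouped by the labels. The authors deposited the scanner output, in which Agilent Feature Extraction 10.7.1.1 gives spot intensity after background subtraction and detrending, on the mm9 annotation. The authors also deposited normalized log2 values from GeneSpring, of unnamed normalization, used as an alternative. Control spots were dropped, as were 38 probes marked as outliers, spots of a probe were averaged, and 31912 of 56567 probes were tested. RefSeq named 33858 probes (59.9%). The fit used limma 3.58.1 on every array with 4 residual degrees of freedom, run in R 4.3.3 with data.table (version 1.17.8) and Python 3.11.15. Calculations were tested on simulated data.

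The arrays compared and the 34 gene lists were chosen with earlier results of these data known. Named are genes past the adjusted threshold, the 12 largest rises and 12 largest falls measured in both groups (clone and model names passed over), up to 3 called members of each list or else its first, Pdcd1, and the T-cell genes the study names. Other genes were named after their values were seen. Alternatives were quantile normalization, normexp (offset 50), no filter on dim probes, probes measured on every array, the authors' log2 values, a block for the replicate number, 1 probe for each gene, the 4 compared arrays fitted alone, the methods' t-test, trended and robust moderation, and leaving out each array. A slide block was not run, since there was 1 slide.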

Additional observations from a re-analysis of the deposited data

How the results depend on the processing

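Of the 92 named genes called at the unadjusted threshold, 89 kept their call after quantile normalization, with the authors' log2 values, with the replicate block, with trended and robust moderation and without vehicle replicate 2. The number was 88 without a filter on dim probes, 59 with normexp, 63 in the fit of the 4 compared arrays, 30 with the methods' t-test, 61 without vehicle replicate 1, and 55 and 65 without anti-PD-1 replicates 1 and 2. Of 55 that were well above background on all 8 arrays, 55 were called among such probes alone. None of the 92 changed direction in these settings. Among genes not called, Acta1 was at -0.09 and -0.15 without vehicle replicate 1 and without anti-PD-1 replicate 1 and at 1.13 without anti-PD-1 replicate 2. Il1b was at -0.06 and 0.36, and Prf1 at -0.14 and 1.30, without vehicle replicates 1 and 2. Krt14 was at 6.41 and -1.26 without anti-PD-1 replicates 1 and 2. Ly6g was at -0.12 with normexp, -0.94 and 1.46 without vehicle replicates 1 and 2 and -0.21 without anti-PD-1 replicate 2. Lamp1 was at 0.11 after quantile normalization and with the authors' values, 0.02 with normexp and without anti-PD-1 replicate 1, and -0.07 and 0.06 without vehicle replicates 1 and 2. The cause of these changes was not tested. At the unadjusted threshold 1221 probes were called, 532 higher and 689 lower. Quantile normalization and the authors' values each gave 1084 higher and 371 lower, and 35 adjusted calls, 27 higher and 8 lower, where the main scaling gave 23, 9 and 14. Normexp gave 329 calls, 262 higher and 67 lower, and 2 adjusted, 1 in each direction. Without a filter on dim probes there were 2980, of which 2382 were lower, and 0 adjusted by limma. Probes well above background on all 8 arrays gave 491, of which 133 were lower, and 0 adjusted. The methods' t-test gave 303, with 108 higher and 195 lower, and 0 adjusted. The fit of the 4 compared arrays gave 935 and 0 adjusted, with 2 residual degrees of freedom. Trended and robust moderation gave 1222 and 2 adjusted, both higher with 0 lower. Beside these counts of 0, 4624 probes had a limma unadjusted p not above 0.05 at whatever fold. Leaving out each array in turn gave 968 to 2292 calls, 375 to 1231 higher and 494 to 1842 lower, and 0 to 293 adjusted calls, 0 to 209 higher and 0 to 146 lower. The authors' values gave the same counts as quantile normalization, so these 2 settings count as 1. The median of all probes was -0.10 in the main scaling and -0.01 after quantile normalization. No label says whether equal replicate numbers of the groups mark paired samples, and 2 samples a group are too few to decide. Deviations of same-numbered samples correlated at -0.111 for vehicle and anti-PD-1 and between -0.193 and 0.290 for the other pairs of groups. With the replicate block 1206 probes were called and 4 after adjustment, 1 higher and 3 lower. Dim probes limit the values, since 299 of the 484 lower genes were dark under anti-PD-1.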
